A study of Mus musculus with 18 samples.

Results

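Fibroblasts of mouse skin that were rich in transcripts of both Tnc and Timp1 were picked out of single-cell mRNA libraries of stretched and unstretched back skin. Tnc encodes tenascin-C, a large matrix glycoprotein that is scarce in resting adult skin and is laid down at wound edges, around tumours and in tissue under tension. Timp1 encodes a secreted inhibitor of matrix metalloproteinases, and many fibroblasts make it when inflamed. Fibroblasts that make both proteins are known from healing wounds, where such cells also secrete cytokines and remodel the matrix around them.

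All mice had surgery, in which the back skin was cut near the tail and a path was opened under the skin as far as the neck. In the expanded arm a swelling hydrogel expander was then placed there and held by stitches, and the control arm had none. Skin was taken after 1, 2 or 4 days, and living cells were sorted by exclusion of the dye DAPI. Each arm gave 5 libraries, from rounds 1 and 2 of day 1, rounds 1 and 2 of day 2, and day 4. The mice of an arm and round were pooled in 1 library, and all libraries but those of day 1 round 1 carried hashtags, DNA-barcoded antibodies that mark the cells of 1 mouse. Strain, sex and age are not given in the sources used here, and no group without surgery was analysed here.

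The cells were chosen by their own transcript counts. Of 47251 kept cells, 10733 passed a fibroblast gate: Col1a1, Col1a2, Col3a1 and Dcn together gave at least 1% of the unique molecular identifiers (UMIs, counts of single mRNA molecules), Pdgfra had at least 1 UMI, Ptprc had 0, and Krt5 and Krt14 together gave less than 0.3%. Among these, 829 cells had at least 5 UMIs of Tnc and at least 5 of Timp1. The rule then removed cells with 3 or more UMIs of Coch and Crabp1, with 6 or more of Mme, Wnt5a, Grem1 and Igfbp2, or with 4 or more of Slc26a7, Prlr, Pappa2 and Corin. These limits removed 734 of the 829 cells. The remaining 95 cells, 37 from control and 58 from expanded libraries, are called Tnc/Timp1-high fibroblasts. The Coch and Crabp1 limit was exceeded by 604 of the 829 cells, the Mme, Wnt5a, Grem1 and Igfbp2 limit by 399, and the limit on Slc26a7, Prlr, Pappa2 and Corin by 24. Near the minimum, 8 of the 95 cells had exactly 5 Tnc UMIs, and 10 further cells within the limits missed the rule with 4. For Timp1 the numbers were 3 cells with 5 UMIs and 11 with 4.

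The working name of these cells was Tnc-high activated fibroblasts, with Tnc, Timp1, Mmp3 and Saa3 as markers. The rule sets the first 2 of these genes. The other two did not mark the cells. Mmp3, the secreted protease stromelysin-1, had a UMI in 56 of the 95 cells (58.9%). Saa3, an acute-phase protein made by inflamed stroma, had one in 37 (38.9%), and 5 cells held 50.8% of its UMIs. Against fibroblasts within the same limits that had fewer Tnc or Timp1 UMIs, the log2 ratio was 0.06 ± 1.17 (SD over 6 libraries) for Mmp3 and 0.56 ± 3.49 for Saa3. The cells are therefore named here by the rule and not as activated fibroblasts.

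The stretches just upstream of the genes in question are shown because Tnc and Timp1 define the cells and Ptgs2 had the highest level among the genes that were higher in them than in low fibroblasts within the limits. They are the 250 bases before a transcription start in RefSeq, build GRCm38.p6, on the strand of the gene, at chr4:64047016-64047265 (minus strand) for Tnc, chrX:20869916-20870165 (plus) for Timp1 and chr1:150099781-150100030 (plus) for Ptgs2. Capitals mark matches, on either strand, to the TATA box (TATAAA, found in 12.4% of 32851 RefSeq promoter windows of that length) or to the C/EBP motif (TTNCNNAA, found in 36.8%).
Tnc: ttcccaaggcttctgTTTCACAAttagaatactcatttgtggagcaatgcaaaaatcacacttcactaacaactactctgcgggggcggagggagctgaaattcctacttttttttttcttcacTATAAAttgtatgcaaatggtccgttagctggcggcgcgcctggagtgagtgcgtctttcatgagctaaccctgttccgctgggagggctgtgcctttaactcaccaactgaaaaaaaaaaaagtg
Timp1: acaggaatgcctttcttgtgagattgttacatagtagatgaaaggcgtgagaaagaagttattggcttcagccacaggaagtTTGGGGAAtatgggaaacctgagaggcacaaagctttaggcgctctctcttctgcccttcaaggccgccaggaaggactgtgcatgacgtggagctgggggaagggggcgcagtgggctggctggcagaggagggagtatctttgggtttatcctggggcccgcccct
Ptgs2: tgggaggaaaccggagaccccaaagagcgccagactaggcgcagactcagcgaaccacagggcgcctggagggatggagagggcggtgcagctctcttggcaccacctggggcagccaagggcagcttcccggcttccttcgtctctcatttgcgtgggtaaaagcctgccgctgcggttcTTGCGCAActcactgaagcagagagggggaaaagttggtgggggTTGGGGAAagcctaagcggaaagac
The Tnc window held TATAAA 126 bases before the start and a C/EBP match 235 bases before it, and Timp1 had a C/EBP match at 168 bases. Ptgs2 held C/EBP matches at 69 and 25 bases. RefSeq gives a second start of Tnc, whose window of the same length at chr4:64046937-64047186 (not printed) held TATAAA 205 bases before that start and no C/EBP match. The AP-1 motif TGANTCA, found in 6.75% of the windows, and the NF-κB motif, found in 7.25%, had no match in the 3 windows shown. A match is a description of the letters only.

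The first comparison asked whether these cells took a larger share of the fibroblasts in stretched skin. They did in all 5 pairs of libraries. On day 1 round 1, 1 of 2502 control fibroblasts (0.0400%, 95% Wilson interval 0.00706% to 0.226%) and 10 of 885 expanded fibroblasts (1.13%, 0.615% to 2.07%) were Tnc/Timp1-high. On day 1 round 2, the shares were 4 of 2201 (0.182%, 0.0707% to 0.466%) and 16 of 751 (2.13%, 1.32% to 3.43%). On day 1 most of them were thus in the expanded libraries. On day 2 round 1, they were 0 of 590 in the control library, which allows a share of up to 0.508% by the floor of 3 counts (95% Wilson upper bound 0.647%), and 13 of 384 in the expanded one (3.39%, 1.99% to 5.71%). The control library of day 2 round 2 stood above the other controls, with 19 of 1058 (1.80%, 1.15% to 2.79%), beside 12 of 163 expanded fibroblasts (7.36%, 4.26% to 12.4%). On day 4 the shares were 13 of 1891 (0.687%, 0.402% to 1.17%) and 7 of 308 (2.27%, 1.11% to 4.62%). The arms overlapped across days, since the day 2 round 2 control library lay above the day 1 round 1 expanded library.

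**Figure D1:**
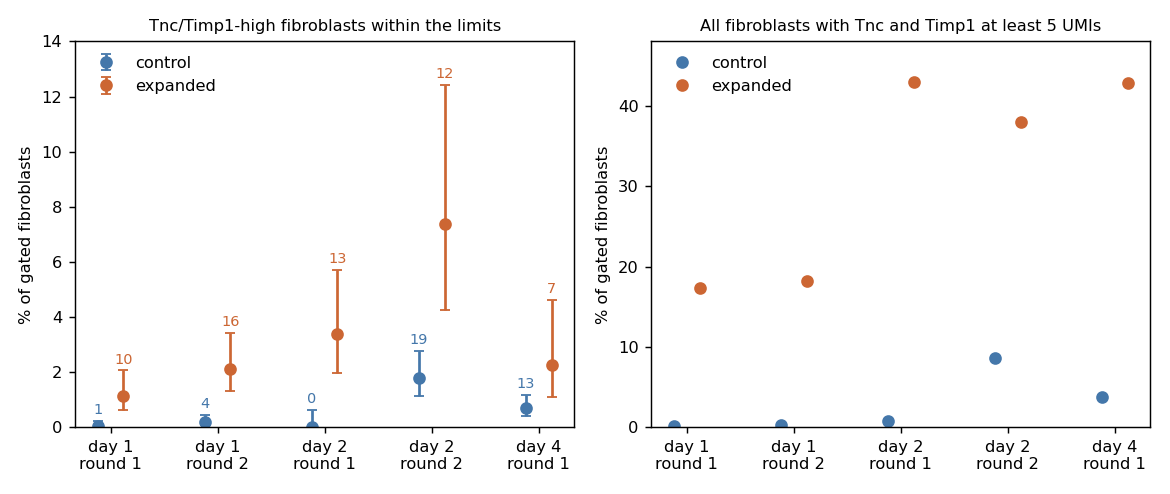
Percent of gated fibroblasts in each library, by day, round and arm, that were Tnc/Timp1-high within the limits (left, with 95% Wilson intervals and the number of cells) or that had at least 5 UMIs of both genes regardless of the limits (right). In each of the 5 pairs and in both panels the expanded point lies above the control point.

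Over libraries the mean share was 0.541% ± 0.753 (SD, n = 5) in control and 3.26% ± 2.43 (SD, n = 5) in expanded skin, a difference of 2.72 percentage points (exact two-sided permutation test, p 0.0159). With the arms permuted within pairs, p was 0.0625, the smallest that 5 pairs allow. Without the expanded library of day 2 round 2 the difference was 1.69 points (exact permutation p 0.0317). Higher Tnc in expanded fibroblasts was known when the rule was made. The p-values for this share, here and per mouse, are thus not independent evidence on Tnc or Timp1. As a share of all kept cells, the means were 0.113% ± 0.137 (SD, n = 5) and 0.364% ± 0.160 (SD, n = 5), with an exact permutation p of 0.0317. Expanded fibroblasts were also sequenced more deeply, with a median of 13741 UMIs against 11331.5 in control fibroblasts. With Tnc, Timp1 and all limits set as shares of a cell's UMIs, the difference was 3.33 points (exact permutation p 0.0159).

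Cells rich in Tnc and Timp1 of any kind separated the arms further. This is given without a test, because among gated fibroblasts it rests on Tnc and Timp1 alone. Without the limits on other genes, the 2 minimums were met by 2.75% ± 3.58 (SD, n = 5) of fibroblasts in control libraries and by 31.9% ± 13.0 (SD, n = 5) in expanded ones. Of the cells that did, the Tnc/Timp1-high cells within the limits were 37 of 180 in control and 58 of 649 in expanded libraries. Per expanded library, between 5.30% and 19.4% of the high cells lay within the limits, with the day 2 round 2 library highest and day 4 lowest.

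Hashtags gave 47 of the 95 cells to a mouse, 24 in control and 23 in expanded skin. Among 14 control mice the share of Tnc/Timp1-high cells was 1.06% ± 1.61 (SD), and among 14 expanded mice it was 2.80% ± 3.68 (SD). The difference of 1.74 percentage points did not pass (permutation within day and round, 100000 resamples, p 0.109). In the control pool of day 2 round 2, which had the most of these cells among controls, the 4 mice had shares of 4.80%, 3.13%, 1.55% and 0.557%. The cells of that library therefore came from all 4 animals. On day 4, control mouse 2 gave 7 of the 10 control cells with a mouse, from 194 fibroblasts (3.61%). Mice with as few as 13 fibroblasts entered this comparison, so single shares are coarse. Among mice with at least 20 fibroblasts the difference was 1.22 points (permutation p 0.175). With a looser hashtag rule the difference was 2.74 points (permutation p 0.0126).

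Amounts of the 2 defining transcripts varied widely among the 95 cells. Tnc had a median of 15 UMIs per cell, from 5 to 491, with medians of 10 in control and 23.5 in expanded cells. Timp1 had a median of 18, from 5 to 458, with medians of 13 and 23. Total UMIs differed in the same direction, with medians of 15204 in control and 20989.5 in expanded cells. Summed over the Tnc/Timp1-high cells of a library, Tnc took 1469, 2821, 2222, 4306 and 1347 CPM (the share of all UMIs, scaled as counts per 1000000) in the expanded libraries of day 1 round 1, day 1 round 2, day 2 round 1, day 2 round 2 and day 4. It took 1110.0 and 925 in the control libraries of day 2 round 2 and day 4, the only controls with 10 or more of the cells. In the smaller controls it took 457 CPM in the 1 cell of day 1 round 1 and 2482 CPM in the 4 cells of day 1 round 2. The latter value lay above 3 of the 5 expanded ones, so the arms overlapped. Timp1 took 795, 3318, 4325, 4721 and 1699 CPM in the same expanded libraries. In the controls it took 868 and 1134 CPM on day 1 and 2193 and 751 CPM in the larger pair, so here too the arms overlapped. These levels are given without a test, because the rule used both genes.

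**Figure D2:**
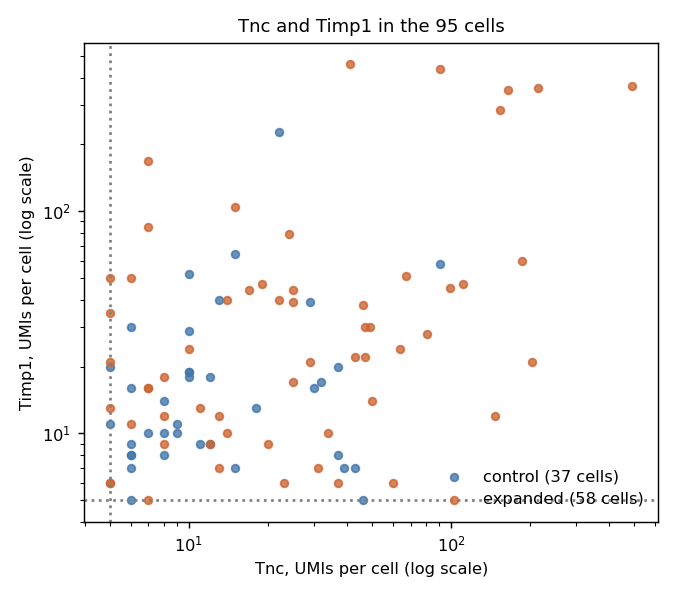
Tnc (horizontal) against Timp1 (vertical) in UMIs per cell on logarithmic axes, one point for each of the 95 Tnc/Timp1-high cells, coloured by arm; dotted lines mark the minimum of 5 UMIs. Of the 7 cells above 200 Timp1 UMIs, 6 are from expanded libraries.

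A group of 7 cells stood out at the top of the Timp1 range and was chosen after its values were seen. These cells had 227 to 458 Timp1 UMIs, where the next cell had 169, and they held 52.9% of all Timp1 UMIs of the 95 cells and 32.3% of the Tnc UMIs. Of the 7, 6 came from expanded libraries, 5 of them from day 2. They were deeply sequenced, with 17177 to 46226 UMIs per cell, so pooled shares are given beside the counts. Tnc was at 5484 CPM in them and at 1586 CPM in the other 88 cells. Ptgs2, the inducible cyclooxygenase that makes prostaglandin precursors, was at 2535 against 944 CPM. Fst, the secreted activin antagonist follistatin, was at 1263 against 507 CPM. Cxcl5, a chemokine that draws neutrophils, was at 2563 against 239 CPM and had a UMI in 5 of the 7 cells and in 13 of the 88. Clec3b, tetranectin, which marks resting fibroblasts of the fascia and adventitia, had a UMI in 1 of 7 and 50 of 88. Mmp3 was at 1086 against 664 CPM, while Saa3 was lower in the 7 cells, at 186 against 1894 CPM. With 1 control cell among the 7, these pooled levels mix the amount of Timp1 with arm and library. The part of arm and library was not tested.

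Within libraries, over 83 cells and 2653 genes, Ptgs2 was among the genes whose share of a cell's UMIs followed the shares of both defining genes most closely. Its rank correlation was 0.42 with Tnc and 0.36 with Timp1. Sod2, the mitochondrial superoxide dismutase induced by NF-κB, had 0.42 and 0.36. Mcl1, an inhibitor of cell death, had the highest value with Tnc at 0.44, and Mafg, a small Maf transcription factor, the highest with Timp1 at 0.45. Nfia, a transcription factor of the nuclear factor I family, had the lowest with Tnc at -0.43, and Clec3b had -0.37. Depth differed between the cells of a library, from 5957 to 46226 UMIs in the expanded one of day 2 round 2, and its part was not tested. These weak values are a description only.

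To see what else the cells carried, their summed counts were set beside 3 kinds of fibroblast from the same library. Only the 6 libraries with at least 10 Tnc/Timp1-high cells were used, the 4 expanded ones of days 1 and 2 and the 2 controls named above. A gene was counted when the mean log2 ratio was at least 1 in size and its sign was the same in all 6 libraries. No test is given, because the rule made this contrast. Against all other gated fibroblasts, 15 of 7662 measured genes were higher (0.196%) and 190 were lower (2.48%). Against gated fibroblasts without a single Tnc UMI, 51 were higher (0.662%) and 243 lower (3.15%). The cells were deeper than their neighbours, with a median of 17430 UMIs against 11780 in all gated fibroblasts. With every cell thinned to 3000 UMIs, 26 and 292 genes were counted against all other fibroblasts.

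The closest contrast is with 4372 fibroblasts that met the same limits but fell short on Tnc or Timp1. The Tnc/Timp1-high cells had more Ptgs2, Fst, Lrrc32, Ltbp2 and Cd44, and less of 8 of 18 measured genes known from resting fibroblasts. In all, 38 of 7663 genes were higher (0.496%) and 177 lower (2.31%). Thinning to 3000 UMIs gave 59 higher genes.

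Ptgs2 had the highest level among the higher genes and was the only gene counted among 6 measured genes of prostaglandin metabolism. In Tnc/Timp1-high cells it had 397, 1876, 1203 and 1155 CPM in the expanded libraries of days 1 and 2, and 1066 and 1503 CPM in the controls of day 2 round 2 and day 4. In the low fibroblasts of those libraries it had 183, 344, 345 and 231 CPM, and 463 and 482 CPM. Each high value lay above its own library's low value, and the 2 control values lay within the range of the expanded ones. The mean log2 ratio was 1.74 ± 0.55 (SD, n = 6), and 67 of the 95 cells had a UMI of Ptgs2.

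Fst had the largest ratio among abundant genes, 1.96 ± 0.81 on the log2 scale (SD, n = 6). Its levels were 322, 1281, 569 and 879 CPM in the expanded libraries and 348 and 357 CPM in the controls, against 104, 288, 191 and 71.3 CPM, and 111 and 135 CPM, in the low fibroblasts. Every Tnc/Timp1-high value was above all the low values. Ltbp2, listed with the elastic-fibre genes, encodes a matrix protein of the latent TGF-β binding family and had 127 ± 75.7 CPM against 39.3 ± 9.49 (SD, n = 6). Lrrc32, which encodes GARP, a cell-surface anchor of latent TGF-β, had 71.3 ± 15.0 CPM against 21.1 ± 7.82 (SD, n = 6). Inhba, the activin A subunit that follistatin binds, averaged 157 ± 201 CPM against 33.3 ± 7.31 but was not higher in every library (5 of 6), and 557 CPM in the day 2 round 2 expanded library raised its mean. The TGF-β and activin list holds neither Ltbp2 nor Lrrc32. Of its 15 measured genes 1 was counted as higher and 0 as lower, and their median log2 ratio was 0.11, against -0.02 over all genes.

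Receptors and enzymes of hyaluronan, a large matrix sugar, gave 2 higher genes among 7 measured. Cd44, its main receptor, had 362, 706, 372 and 494 CPM in the expanded and 215 and 394 CPM in the control Tnc/Timp1-high cells, while low fibroblasts had 132 to 188 CPM. The lowest Cd44 value of the cells was therefore above the highest of the low fibroblasts, and 89 of the 95 cells had a UMI. Cemip2, a cell-surface hyaluronidase, had 69.4 ± 44.7 CPM against 26.5 ± 7.79 (SD, n = 6). Tnfaip6, which transfers proteins onto hyaluronan, was at 4034 ± 1469 against 2177 ± 1025 CPM (SD, n = 6) and missed the size limit, with a log2 ratio of 0.92 ± 0.70.

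Matrix genes differed in both directions. Thbs2, thrombospondin-2, had 496, 341, 706 and 586 CPM in expanded and 314 and 1008 CPM in control Tnc/Timp1-high cells, against 196 to 393 CPM in low fibroblasts. The ranges overlapped, though each library's own ratio was above 0 (log2 1.03 ± 0.55, SD, n = 6). Col12a1, a collagen that binds fibrils under load, had 121 ± 124 against 39.1 ± 25.9 CPM (SD, n = 6), with 364 CPM in the day 2 round 2 expanded library. Of 16 matricellular genes measured besides Tnc, 1 was higher and 3 were lower, among them Spp1 (osteopontin), at 7.23 ± 10.0 against 118 ± 87.1 CPM (SD, n = 6), and Sparcl1, at 25.6 ± 23.2 against 108 ± 51.1. Of 16 measured collagens 1 was higher and 2 were lower. The latter were Col14a1, at 23.1 ± 28.6 against 87.7 ± 49.7 CPM, and the basement-membrane-associated Col15a1, at 78.1 ± 83.8 against 246 ± 75.1 (SD, n = 6). Timp3, the family member that stays bound to matrix, ran against Timp1, at 44.0 ± 36.0 against 378 ± 284 CPM (log2 -3.01 ± 1.24, SD, n = 6). None of the 9 measured receptors of tenascin-C, integrins and syndecan-4 among them, was counted.

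Other genes among the leading 10 included Glrx, glutaredoxin, at 118 ± 80.4 against 26.3 ± 5.42 CPM, and Alpl, tissue-nonspecific alkaline phosphatase, at 62.6 ± 22.0 against 20.6 ± 10.7 CPM (SD, n = 6). Rai14, an actin-binding protein, was at 84.1 ± 27.4 against 25.4 ± 4.04 CPM (SD, n = 6). Ass1, argininosuccinate synthase, was at 68.9 ± 44.9 against 21.4 ± 9.75 CPM. None of 13 NF-κB feedback genes and none of 18 genes of glycolysis and hypoxia was counted in either direction.

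**Figure D3:**
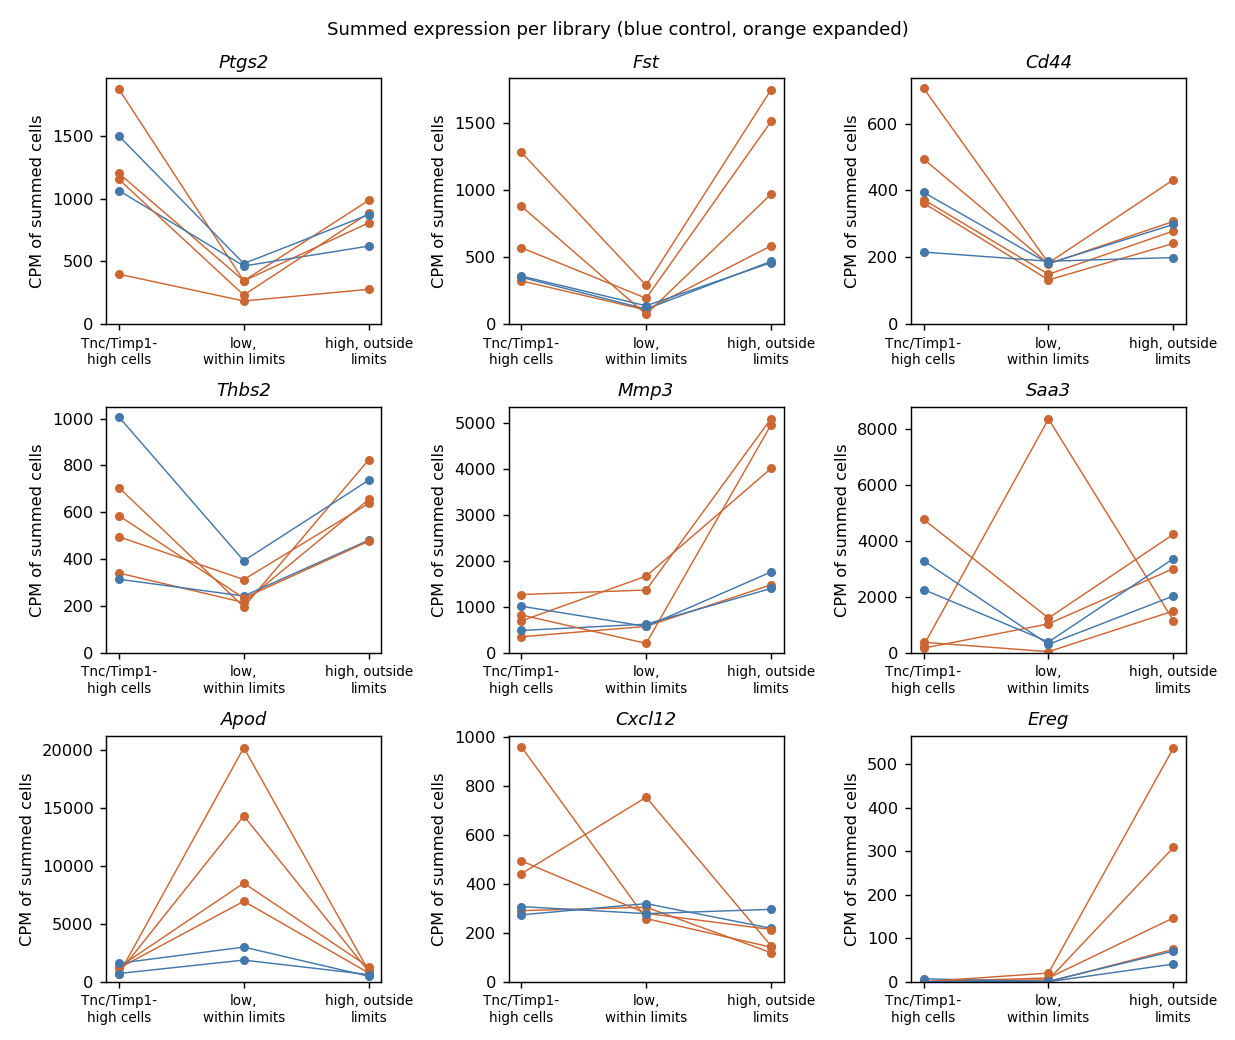
CPM of 9 genes in 3 kinds of fibroblast, with points of the same library joined by a line (blue control, orange expanded), for the 6 libraries with at least 10 Tnc/Timp1-high cells. Ptgs2, Fst and Cd44 were above the low fibroblasts in each library, and Mmp3 was below the high fibroblasts outside the limits in each library.

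Genes of resting fibroblasts were lower. Of 18 measured genes of that list 8 were lower and 0 higher, with a median log2 ratio of -1.30 against -0.02 over all genes. Apod, apolipoprotein D, had 1161, 628, 1248 and 774 CPM in expanded and 1595 and 710.0 CPM in control Tnc/Timp1-high cells. In low fibroblasts it had 6947, 20203, 8511 and 14308 CPM, and 2991 and 1867 CPM, so that the 2 kinds did not overlap (log2 -2.80 ± 1.58, SD, n = 6). Clec3b was at 146 ± 100.3 against 472 ± 343 CPM, and Dpp4, the surface peptidase CD26 of adventitial fibroblasts, at 11.9 ± 17.9 against 40.5 ± 20.1 (SD, n = 6). Igfbp4, a binding protein of insulin-like growth factors, was at 22.4 ± 33.6 against 484 ± 275 CPM, and the heparan sulfate proteoglycan Gpc3 at 20.8 ± 5.89 against 348 ± 236 (SD, n = 6). In the sums of these cells 3 counts correspond to 8.94 to 13.7 CPM, so values near that level rest on single molecules.

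Acute-phase and immediate-early genes were also lower where they were counted. Of 12 acute-phase genes 3 were lower, among them Cp, ceruloplasmin, at 15.2 ± 7.91 against 270.4 ± 180.0 CPM (SD, n = 6). C3, the central complement protein, had 134 ± 107 against 292 ± 126 CPM. Of 20 genes of the AP-1 and immediate-early list 3 were lower, which were Fos at 2648 ± 1405 against 5199.8 ± 2099 CPM, Jun at 1657 ± 759 against 3154 ± 1147 and Ier2 at 275 ± 135 against 602 ± 258 (SD, n = 6). Such genes are also induced when tissue is digested, and the share of digestion in these values was not tested.

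The second contrast set the cells beside the 734 fibroblasts that were as rich in Tnc and Timp1 but exceeded a limit on other genes. Here 11 of 7585 genes were higher (0.145%) and 88 lower (1.16%). Mmp3 was the lower gene of highest level. It had 348, 1265, 691 and 824 CPM in expanded and 485 and 1012 CPM in control Tnc/Timp1-high cells, against 1477, 5085, 4004 and 4954 CPM, and 1398 and 1756 CPM, in the cells outside the limits. The 2 kinds did not overlap (log2 -1.91 ± 0.67, SD, n = 6). Saa3 did not separate them, with 379.6, 4771, 256 and 167 CPM, and 3292 and 2263 CPM, in the Tnc/Timp1-high cells and 1152 to 4237 CPM in the others (log2 -1.32 ± 1.78, SD, n = 6).

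Several genes of this contrast were close to absent in the Tnc/Timp1-high cells, and Twist2 was lower in them. Ereg, the EGF receptor ligand epiregulin, had 2 UMIs in all, both in 1 control cell, against 40.7 to 538 CPM in cells outside the limits. F13a1, the transglutaminase subunit of clotting factor XIII, was at 1.33 ± 2.10 against 201 ± 103 CPM (SD, n = 6). Stc1, the secreted hormone stanniocalcin-1, was at 13.4 ± 17.0 against 188 ± 85.1 CPM and Sema3a, a repulsive guidance cue, at 10.5 ± 7.79 against 131 ± 45.4. Fmod, fibromodulin, was at 3.62 ± 6.16 against 133 ± 114 CPM, and Saa1 at 10.1 ± 12.1 against 106 ± 66.4 (SD, n = 6). Twist2, a transcription factor of dermal fibroblasts, was at 119.9 ± 18.1 against 260.3 ± 74.0 CPM (SD, n = 6).

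The higher genes of this contrast included a chemokine and a receptor ligand. Cxcl12, which retains leukocytes that carry CXCR4, had 290.3, 961, 441 and 494 CPM in expanded and 273 and 307 CPM in control Tnc/Timp1-high cells, against 119 to 296 CPM outside the limits. The ranges overlapped, while each library's ratio was above 0 (log2 1.18 ± 0.95, SD, n = 6). Gas6, the ligand of TAM receptors, had 516 ± 260.0 against 236 ± 113 CPM (log2 1.07 ± 0.37, SD, n = 6) and Hk2, hexokinase 2, had 272 ± 52.8 against 134 ± 32.5 (log2 1.00 ± 0.32). The resting fibroblast list, lower against low fibroblasts, had 1 higher and 1 lower gene among 17 here, with a median log2 ratio of 0.05 against -0.07 over all genes. Gas6, by contrast, was lower than in the low fibroblasts in all 6 libraries (log2 -0.85 ± 0.44, SD, n = 6). Ptgs2 and Cd44 were higher than in cells outside the limits in 6 of 6 libraries, with log2 ratios of 0.66 ± 0.34 and 0.48 ± 0.22 (SD, n = 6), below the size limit.

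**Figure D4:**
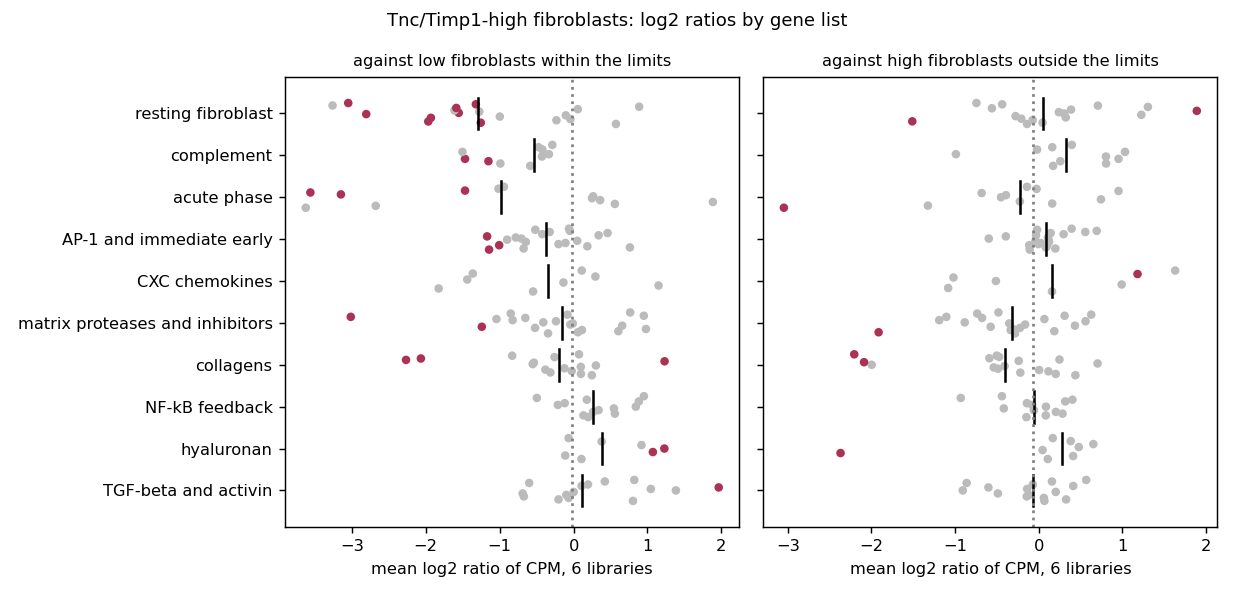
Mean log2 ratio of CPM over 6 libraries for each measured gene of 10 lists, in Tnc/Timp1-high cells against low fibroblasts within the limits (left) and against high fibroblasts outside them (right); coloured points are counted genes, black bars the list medians and dotted lines the median over all genes. The resting fibroblast list lies at -1.30 in the first comparison and at 0.05 in the second.

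Next, the same cells were compared between arms, to ask whether stretch went with a different profile among cells already chosen for Tnc and Timp1. Cxcl5 had no UMI in control cells. It was at 214, 628, 1254, 904 and 568 CPM in the cells of the 5 expanded libraries and had 0 UMIs in both control libraries. A UMI of Cxcl5 was found in 18 of 58 expanded cells and in 0 of 37 control cells, which allows a share of up to 8.11% of control cells with a UMI. Control cells were shallower (medians above), and the part of depth was not tested. Pooled, the expanded cells had 775 CPM, while 3 counts over all control cells correspond to 5.17 CPM. The UMIs were concentrated in few cells, so this floor gives no bound on the fold between arms. A single cell held 272 of the 922 UMIs.

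By the quasi-likelihood test of edgeR over 6 libraries, adjusted for day, 0 of 3968 genes passed a Benjamini-Hochberg adjusted p of 0.05 (0% higher and 0% lower), and 265 had an unadjusted p below 0.05. Cxcl5 had the smallest adjusted p, 0.155. With DESeq2 it was the 1 gene called (adjusted p 0.00321), and also with libraries of 5 or more cells in edgeR (adjusted p 0.0256). Day 1 has no control library in this fit, and only day 2 holds both arms. The arm fold changes thus rest on the 2 expanded libraries of day 2 against the control of day 2 round 2. Leaving out either of these expanded libraries leaves 1 library per arm to set the fold change, so the calls of those fits are not given. How far the count of 0 depends on these libraries could therefore not be told.

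Other genes that were named for these cells did not pass between arms in the fit over 6 libraries. In simulated counts for the same libraries, that fit recovered 2.38% of genes with a log2 change of 1 and 47.1% of those with 2. A gene that did not pass may therefore still differ. By edgeR, Ptgs2 had a log2 fold change of 0.06 ± 0.75 (SE, with an adjusted p of 0.992) and Fst 0.96 ± 0.75 (SE, adjusted p 0.865). Saa3 had -4.02 ± 1.07 (SE, edgeR adjusted p 0.653), which rests on day 2, with 3292 CPM in the control against 256 and 167 CPM. Outside that comparison it had 2263 CPM in the day 4 control, and 379.6 and 4771 CPM in the expanded libraries of day 1. Pi16, a marker of adventitial fibroblasts, had 758 and 783 CPM in the controls and 47.7 to 362 CPM in the 4 expanded libraries, a gap between the arms that did not pass either (edgeR adjusted p 0.715). Il1rl1, the receptor of interleukin-33, had UMIs in 15 of 58 expanded cells and in 1 of 37 control cells (edgeR adjusted p 0.632). Without the expanded library of day 2 round 2, the fold change rests on 1 library per arm, so only its size is given. The log2 fold change was then -3.71 for Saa3, -4.00 for Pi16 and 6.67 for Il1rl1. Without the day term, Il1rl1 was 1 of 17 genes that passed over 6 libraries (8.87, edgeR adjusted p 0.0476). Arm and day cannot be told apart in that fit.

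The remaining gated fibroblasts showed many differences between arms. There, 3737 of 12563 genes passed over 10 libraries by edgeR, 1820 higher in expanded skin (14.5%) and 1917 lower (15.3%). Among them the log2 fold change of Cxcl5 was 6.65 ± 0.95 (SE, with an edgeR adjusted p of 0.000798), that of Fst 2.00 ± 0.31 (adjusted p 0.0012), Saa3 3.27 ± 0.85 (adjusted p 0.0146) and Mmp3 1.24 ± 0.29 (adjusted p 0.00843). These fibroblasts include the cells outside the limits that met both minimums. Both minimums were met by 180 of 8242 gated cells in control and 649 of 2491 in expanded libraries, and all but 37 and 58 of these are included. The part of this make-up in the arm differences, and in the test of the 2 responses below, was not tested. The numbers of cells and libraries differ, so the 2 counts of calls cannot be set against each other.

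The difference between the 2 responses was therefore tested itself, as an interaction over the 6 libraries. By edgeR, 6 of 9968 genes passed, 1 with a higher (0.01%) and 5 with a lower response (0.0502%) in the Tnc/Timp1-high cells. Col6a3, a chain of beaded-filament collagen VI, had 326, 271, 572 and 619 CPM in expanded and 997 and 1338 CPM in control Tnc/Timp1-high cells. In the other fibroblasts it had 520.4, 551, 755 and 947 CPM, and 584 and 599 CPM. The expanded Tnc/Timp1-high cells thus lay below their controls without overlap, and the difference of the responses was -1.58 ± 0.24 on the log2 scale (SE, edgeR adjusted p 0.0149). Masp1, a serine protease of the lectin pathway of complement, had -1.76 ± 0.26 (edgeR adjusted p 0.0149), and Fcgr2b, an inhibitory receptor for antibodies, -2.71 ± 0.42 (adjusted p 0.0149). Ogn, the small proteoglycan osteoglycin, had -2.78 ± 0.49 and Mxra8, a cell-surface adhesion protein, -1.74 ± 0.31 (SE, edgeR adjusted p 0.0400 for both). Rgs2, a brake on G-protein signalling, had 2.07 ± 0.37 (adjusted p 0.0400), with 121 to 185 CPM in expanded and 41.0 and 27.5 CPM in control Tnc/Timp1-high cells.

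These 6 calls were not stable, and arm cannot be fully told apart from day in them. The expanded libraries were from days 1 and 2 and the controls from days 2 and 4. With a term for the day by kind of cell, chosen after seeing the data, none of the 6 genes passed by edgeR (adjusted p 0.13 for Fcgr2b and 0.37 to 0.817 for the others), while their directions stayed the same. That fit called 3 other genes, Saa3, Enpp2 and Chrna1. The day 4 expanded library, with 7 cells, was in neither fit. Set beside the day 4 control, it kept the direction for Col6a3, Masp1 and Fcgr2b but not for Ogn, Mxra8 and Rgs2. In expanded and control Tnc/Timp1-high cells, Ogn had 115 and 91.6 CPM, Mxra8 359 and 110, and Rgs2 54.1 and 27.5. In the other fibroblasts they had 157 and 263, 268 and 109, and 154 and 56.0 CPM. Leaving out the expanded library of day 1 round 2 left 1 call and 0 of the 6 genes, and with libraries of 5 or more cells 1 of the 6 remained. Leaving out the control library of day 4 kept 1 of the 6 and that of day 2 round 2 kept 2. Without the expanded library of day 1 round 1 there were 5 calls, 2 of them shared. All 6 passed in DESeq2, which called 22 genes, and without the expanded library of day 2 round 1 (34 calls) or of day 2 round 2 (89 calls). Saa3, at -3.75 ± 0.77 (SE, edgeR adjusted p 0.0800), and Mmp3, at -1.27 ± 0.29 (adjusted p 0.144), did not pass. Saa3 did pass with the day by kind term (-5.46, edgeR adjusted p 0.00129) and without the expanded library of day 1 round 2 (-4.66, adjusted p 0.00138).

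**Figure D5:**
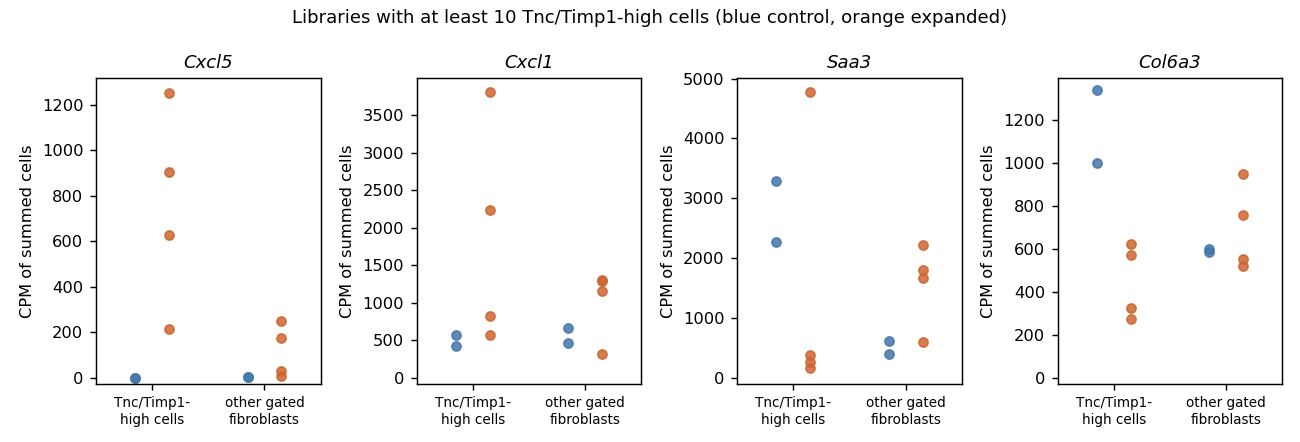
CPM of Cxcl5, Cxcl1, Saa3 and Col6a3 in the Tnc/Timp1-high cells and in the other gated fibroblasts, one point per library (blue control, orange expanded), for the 6 libraries with at least 10 such cells. Cxcl5 is at 0 in both control libraries of the Tnc/Timp1-high cells, and Col6a3 is lower in their expanded than in their control libraries.

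Between days 1 and 2, the edgeR fit called no gene in the cells of expanded skin. In simulated counts, that fit recovered 9.30% of genes with a log2 change of 1 and 73.5% of those with 2. Day 2 against day 1, with 2 libraries each, gave 0 of 3589 genes by edgeR (0% higher and 0% lower), 268 at an unadjusted p below 0.05, and 0 by DESeq2 with 109 at an unadjusted p below 0.05. Saa3 had 379.6 and 4771 CPM on day 1 and 256 and 167 CPM on day 2, which did not pass (edgeR adjusted p 0.597). Day 4 has a single library of 7 cells, so a fit against day 1 has no replicate there and only levels are given here. Mt2, a metallothionein that binds zinc and copper, took 6998 and 5477 CPM in the day 1 libraries, 3318 and 2582 CPM in those of day 2, and 562 CPM in that of day 4. Mt1, its close relative, was at 8672 and 9222 CPM, 5883 and 4143 CPM, and 1502 CPM. Both were lowest in the day 4 library. Apod was at 12898 CPM on day 4, where 1 cell held 1691 of its UMIs.

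Markers of other cell types summed to far less than those of fibroblasts in the cells. Over libraries the summed level of 10 fibroblast markers was 26902 to 85643 CPM. Of these, 5 are genes of the gate, so the choice of cells set this difference in part. Of the markers below, 2 of keratinocytes (Krt5 and Krt14) were limited by the gate. Another, Corin of the dermal papilla, was limited by the rule in the Tnc/Timp1-high cells only. Cdh5 and Emcn of endothelium, Sox10 and Gfra3 of Schwann cells, and Adgre1, C1qa and C1qb of macrophages had 0 UMIs in all 95 cells. So did Csf3r, Cxcr2 and Retnlg of neutrophils and Cd3d, Cd4 and Trbc2 of T cells. These are named because they were at 0, and every other marker of these lists had at least 1 UMI. The 12 macrophage markers, 3 of them at 0, summed to 16.7 to 92.2 CPM against 35.6 to 172 CPM in the other fibroblasts, and the 8 neutrophil markers to 29.3 to 195 against 43.6 to 249.7 CPM (3 at 0). The 12 keratinocyte markers (1 at 0) summed to 11.9 to 127 CPM against 38.0 to 173 CPM, and the 8 endothelial ones (2 at 0) to 4.47 to 12.3 against 3.81 to 35.0 CPM. The 10 pericyte and smooth muscle markers (1 at 0) summed to 32.8 to 266 against 137 to 730.0 CPM, and the 10 of the dermal papilla (6 at 0) to 4.47 to 133 against 122 to 533 CPM. These lists thus had lower maxima in the Tnc/Timp1-high cells. The same held for the 8 Schwann cell markers (2 at 0), at 8.93 to 59.6 against 34.4 to 77.9 CPM, the 6 of melanocytes (2 at 0), at 4.11 to 51.2 against 26.1 to 57.3 CPM, and the 8 of muscle (6 at 0), at 0 to 26.8 against 4.25 to 30.0 CPM. It did not hold for the 8 T cell markers (3 at 0), at 0 to 45.2 against 2.20 to 29.9 CPM, or for the 8 adipocyte markers (6 at 0), at 53.6 to 413 against 110.1 to 319 CPM. The part of these cell types in the results was not tested. Scrublet marked 0 of the 95 cells as doublets, 1 cell had more than 1 hashtag, and 3 had a barcode that was also kept in another library. A UMI of Tnc was found in 13.9% of control and 59.7% of expanded gated fibroblasts, against 2.56% and 6.21% of Ptprc-positive immune cells, and a UMI of Timp1 in 40.7% and 74.7% against 13.9% and 26.8%. Median UMIs were lower in the immune cells than in the fibroblasts of each library. Only 59 of 14698 Ptprc-positive cells reached both minimums.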

How the data were processed

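The deposited matrices hold raw counts of UMIs per gene and barcode for 10 mRNA libraries, which per the file headers the authors obtained from Cell Ranger 6.1.2; the build mm10 is named in the submitters' processing notes, and the annotation is not given in the sources used here. The 10x Genomics 3′ chemistry reads transcript ends, so isoforms are not resolved. Libraries held 17726739 to 75470722 gene UMIs. Of 55174 barcodes, 47251 were kept, which had 200 or more genes, 500 or more UMIs and no more than 10% of UMIs from mitochondrial genes; called doublets stayed in, and leaving them out was an alternative. Library pairs shared 0 to 18 barcodes.

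Groups came from the library names in the labels, because the titles of 2 samples are exchanged between library kinds. Cells, gene lists and named genes were chosen with earlier results of these data known. No library held the 20 cells first set as the minimum, so sums over at least 10 cells were used. Summed counts were tested with edgeR 4.0.16 (R 4.3.3; filterByExpr, TMM, quasi-likelihood), without the 20 genes of the rule, with day as covariate for arms and the library as block for the interaction; DESeq2 1.42.0 was an alternative. Ratios used a prior of 5 CPM. Shares were permuted with SciPy 1.17.1. The scripts were tested on simulated data. The text names up to 4 genes per list and the 10 highest and lowest of each contrast, at 20 and 50 CPM or more, with exceptions stated.

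Per the labels' protocols the mice of a round were handled together, and deviations of same-numbered libraries correlated at 0.358 on day 1 and 0.176 on day 2, so replicate numbers pair the libraries. Libraries are pools of mice, so p-values measure the spread between pools. Intervals and floors cover counting error only. Hashtags assigned a cell where the leading one had at least 3 times the next and at least 10 counts. Promoter windows came from a RefSeq table of GRCm38.p6, which held Tnc, Timp1 and Ptgs2.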

Additional observations from a re-analysis of the deposited data

Results flagged for a closer look

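Of 81 groups of libraries or mice examined for a value far from the rest, 5 had one, each a gene's level in the Tnc/Timp1-high cells of the 4 expanded libraries of days 1 and 2; chance alone sets apart about 1 in 20 groups. Saa3 was at 4771 CPM in the day 1 round 2 library and at 167 to 379.6 CPM in the others. Il33, an alarmin of stressed tissue, was at 420.0 CPM in the day 2 round 1 library against 54.4 to 82.1 CPM. Gpx3, a secreted glutathione peroxidase, was at 77.4 CPM in that same library against 8.37 to 17.9 CPM. Fbln5, an elastic-fibre protein, was at 41.1 CPM in the day 1 round 2 library against 67.0 to 71.1 CPM, and Lrrc32 was at 41.1 CPM there against 74.5 to 80.4 CPM.

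The response to expansion differed between the Tnc/Timp1-high cells and the other gated fibroblasts in 6 genes, by the interaction term of edgeR. The difference on the log2 scale was -1.76 for Masp1, -1.58 for Col6a3, -2.71 for Fcgr2b, -2.78 for Ogn, -1.74 for Mxra8 and 2.07 for Rgs2. None of the 6 passed with a term for the day by kind of cell, and arm and day cannot be fully told apart there. In the other fibroblasts Fcgr2b was higher in expanded skin, by 3.04 ± 0.46 on the log2 scale (SE, edgeR adjusted p 0.00104), and Masp1 too, by 1.12 ± 0.22 (adjusted p 0.00382).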

How the results depend on the processing

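The higher share in expanded libraries kept its direction in each alternative tried. All of these rest on Tnc and Timp1 counts, so their p-values are not independent evidence on these 2 genes. Without the limits on other genes no test is given, as stated above. In the others the exact permutation p stayed below 0.05 except in the replicate block. There, arms permuted within pairs gave the same difference of 2.72 percentage points with p 0.0625. Leaving out 1 library gave differences of 1.69 to 3.25 points. The replicate block moved no other count of calls by over 1.5 times (4354 against 3737 genes in the other fibroblasts) and could not be fitted to the arms within the Tnc/Timp1-high cells. Per mouse, the looser hashtag rule gave 2.74 points with p 0.0126 and mice with 20 or more fibroblasts 1.22 points with p 0.175. Against all other fibroblasts (15 higher and 190 lower genes), thinning to 3000 UMIs gave 26 and 292, and expanded libraries alone, with 4 libraries in place of 6, gave 35 and 296. Other references gave 51 higher (no Tnc UMI), 38 higher (low within the limits) and 88 lower genes (high outside them), and leaving out 1 library gave 15 to 24 higher (24 without the expanded library of day 2 round 1). Against low fibroblasts (38 and 177), thinning gave 59 higher, and expanded libraries alone gave 77 and 306. For the arms within the cells, calls numbered 62 with no filter on low counts, 1 with DESeq2, 1 thinned, 1 with libraries of 5 or more cells, 17 without the day term, and 0 to 73 with 1 library left out; without the day 2 round 2 control the model could not be fitted. For the difference of responses they numbered 81 with no filter, 22 with DESeq2, 25 thinned, 1 with 5 or more cells, 3 with day by kind of cell as a term (0 of the 6 genes), and 1 to 89 with 1 library left out. For the other fibroblasts, thinning gave 2343. For day 2 against day 1, calls numbered 80 with no filter. Calls are not given for day 4 or with 1 library left out, since a day then has 1 library. Where the construction (fewer libraries, cells or UMIs) does not show it, the cause was not tested. With 1 to 19 of the cells per library, depth limits single genes to about 3 counts, 8.94 CPM or more.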

Other observations

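Further genes that were higher in Tnc/Timp1-high cells than in low fibroblasts within the limits were chosen after their values were seen. Pdpn, podoplanin, a surface glycoprotein of wound and stromal fibroblasts, had 712 ± 230.2 against 285 ± 77.7 CPM (log2 1.28 ± 0.28, SD, n = 6). Cyp26b1, the enzyme that breaks down retinoic acid, had 1062 ± 449 against 506 ± 185 CPM. Pla2g4a, the cytosolic phospholipase that releases arachidonic acid for cyclooxygenases, had 59.2 ± 26.3 against 19.6 ± 5.54 CPM, and Ptgir, the prostacyclin receptor, 42.0 ± 22.2 against 16.2 ± 11.8 CPM. Entpd1, the ectonucleotidase CD39, had 209.7 ± 81.4 against 83.4 ± 30.7 CPM (SD, n = 6). Gsn, the actin-severing protein gelsolin, was lower, at 1683 ± 863 against 4532 ± 1325 CPM. Against high fibroblasts outside the limits Pdpn and Pla2g4a had log2 ratios of -0.08 ± 0.25 and 0.02 ± 0.53 (SD, n = 6), so that neither was counted there.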
